A study of Mus musculus with 8 samples.

Results

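The ligands through which myeloid cells instruct T cells were measured in leukocyte-enriched cell suspensions of mouse kidney, before and after unilateral ischaemia-reperfusion injury (IRI). The set holds 8 of the 57010 genes counted and was chosen for function: the costimulatory molecules Cd80, Cd86, Cd83, Cd40, Icosl and Tnfsf9 and the coinhibitory molecules Cd274 and Pdcd1lg2. The 7 conditions were an uninjured control with untouched kidneys, IRI with vehicle (DMSO) at days 1, 7 and 14, and IRI with entospletinib, an inhibitor of the kinase SYK, at the same days. All mice were male C57BL/6, of an age that the sources used here do not give. Injections into the peritoneum were given shortly before the clamping of the left renal pedicle, were not repeated in the day 1 mice, and went on daily to day 7 and every 2 days after that. Each condition is 1 pool of the kidneys of 3 mice, made before any barcode was added, so variation between mice was not measured. The study describes neither surgery nor vehicle for the control mice. Live cells were sorted by dye exclusion and scatter, with no antibody, and single-cell RNA sequencing by combinatorial barcoding spread the cells of all 7 pools over 8 sublibraries.

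T cells need a second signal besides antigen. CD80 and CD86 on the presenting cell supply it through CD28, and the same ligands engage CTLA-4, which restrains the T cell. CD40 receives CD40 ligand from activated T cells and licenses the presenting cell, ICOSL binds ICOS, and 4-1BB ligand (encoded by Tnfsf9) binds 4-1BB (Tnfrsf9). CD83 marks mature dendritic cells and steadies MHC class II and CD86 at the surface. PD-L1 (Cd274) and PD-L2 (Pdcd1lg2) bind PD-1 (Pdcd1) and dampen T cell responses. SYK signals below Fc receptors, C-type lectins and the B cell receptor, upstream of NF-kappaB.

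In genome build GRCm38, Cd80 (ENSMUSG00000075122) lies on the plus strand at chr16:38455561-38496335 and Cd86 (ENSMUSG00000022901) on the minus strand of the same chromosome at chr16:36603869-36666081. Cd274 (ENSMUSG00000016496, chr19:29367455-29388095) and Pdcd1lg2 (ENSMUSG00000016498, chr19:29410919-29471161) are neighbours on the plus strand, 22823 bases apart. Cd83 (ENSMUSG00000015396) lies at chr13:43784775-43803132, Cd40 (ENSMUSG00000017652) at chr2:165055627-165072948, Icosl (ENSMUSG00000000732) at chr10:78069302-78083913 and Tnfsf9 (ENSMUSG00000035678) at chr17:57105325-57107757, all on the plus strand. RefSeq promoter windows of build GRCm38.p6, from 250 bases before to 50 bases after a gene's start, were matched by symbol for 4 of the 8 members, Cd80, Cd274, Pdcd1lg2 and Icosl. Both strands were searched for an AP-1-like motif, TGANTCA, an NF-kappaB-like motif (GGG, then 3 bases of any kind, then TTCC) and an interferon-response-like motif (GAAA, then 2 bases of any kind, then GAAA). These letters occur in 7.81%, 5.56% and 3.44% of the 32851 promoters of the same length. The 4 windows held 1 match, TGANTCA in Cd80, 42 bases before the start, and that start lies inside the gene span given above. The window of Cd80, the member with the greatest fall in macrophages below, is printed with the match in capitals, beside that of Cd274, the coinhibitory ligand that fell with it, which held none of the motifs. The windows are chr16:38458683-38458982 for Cd80 and chr19:29367188-29367487 for Cd274, both on the plus strand. A match describes letters only.
Cd80: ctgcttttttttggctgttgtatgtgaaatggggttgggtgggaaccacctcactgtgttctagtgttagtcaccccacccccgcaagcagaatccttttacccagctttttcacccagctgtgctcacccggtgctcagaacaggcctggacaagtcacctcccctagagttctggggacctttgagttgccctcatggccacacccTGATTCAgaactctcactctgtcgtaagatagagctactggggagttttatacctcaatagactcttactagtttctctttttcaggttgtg
Cd274: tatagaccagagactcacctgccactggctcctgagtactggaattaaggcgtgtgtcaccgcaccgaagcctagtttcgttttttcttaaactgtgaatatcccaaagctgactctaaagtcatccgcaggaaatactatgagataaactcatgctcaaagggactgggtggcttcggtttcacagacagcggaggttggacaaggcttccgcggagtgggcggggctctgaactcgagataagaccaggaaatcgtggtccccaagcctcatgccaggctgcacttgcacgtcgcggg

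Of 120281 barcodes, 79389 (66.0%) passed the limits on genes, counts, mitochondrial and ribosomal protein transcripts, with 5806 to 20571 cells per pool. The median count per kept cell lay between 2071.5 and 2930 in 6 pools and was 960 in the entospletinib day 14 pool. The limit on ribosomal protein transcripts removed 4.23% to 8.53% of otherwise passing cells in the control and vehicle pools and 29%, 12.1% and 24% in the entospletinib pools of days 1, 7 and 14. Clusters were named from markers, with the 8 members and their receptors left out of the clustering genes, into 15 classes called "-like" because the names rest on rebuilt clusters. The defining markers were present, for example Adgre1 at 876 CPM (counts per 1000000 counts of the class) in macrophage-like cells, Csf3r at 2095 CPM in neutrophil-like cells, Flt3 at 176 CPM in type 2 conventional dendritic (cDC2)-like cells and Ccr7 at 1654 CPM in Ccr7 dendritic cell-like cells. Doublets were kept and were called in 5.39% of cells. Between sublibraries, 28653 barcodes shared a well combination with a barcode of another sublibrary and were treated as separate cells.

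Levels are CPM of counts summed over the cells of a class in a pool, given as mean ± SD over the pools with at least 50 cells of that class. They compare 1 gene across classes, not genes with each other. Cd80 was highest in neutrophil-like cells, at 696 ± 191 CPM (SD, n = 6 pools), followed by Ccr7 dendritic cell-like cells at 441 ± 21.3 CPM (SD, n = 3), cDC2-like cells at 291 ± 66.9 CPM (SD, n = 7) and monocyte-like cells at 254 ± 73.8 CPM (SD, n = 7). Macrophage-like cells had rank 7 of 15 classes, at 44.6 ± 24.7 CPM (SD, n = 7). Its partner in CD28 binding, Cd86, had another order. Monocyte-like cells held the most, at 918 ± 116 CPM, and Ccr7 dendritic cell-like (801 ± 84.2 CPM, n = 3), cDC2-like (778 ± 242 CPM) and macrophage-like cells (723 ± 131 CPM) overlapped one another, while neutrophil-like cells had 243 ± 93.3 CPM (SD, n = 6). Neutrophil-like cells thus had rank 1 for Cd80 and rank 8 for Cd86.

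Cd83 was highest in Ccr7 dendritic cell-like (1455 ± 290 CPM, SD, n = 3) and cDC2-like cells (1351 ± 204 CPM, n = 7). Macrophage-like cells followed at 865 ± 293 CPM and B cell-like cells at 699.7 ± 115.9 CPM (each n = 7). Cd40 stood at 367 ± 117 CPM (SD, n = 3) in Ccr7 dendritic cell-like cells, and the next 3 classes, B cell-like (68.0 ± 17.8 CPM), cDC2-like (62.9 ± 28.3 CPM) and macrophage-like cells (42.0 ± 18.1 CPM, each n = 7), had overlapping ranges. Icosl ran from 157 ± 92.9 CPM (n = 3) in Ccr7 dendritic cell-like cells through cDC2-like cells (82.1 ± 15.7 CPM) to B cell-like (59.2 ± 14.9 CPM) and macrophage-like cells (52.5 ± 6.39 CPM, each n = 7). Tnfsf9 was the member led by cDC2-like cells, at 159 ± 29.4 CPM (SD, n = 7), above every pool of macrophage-like cells, whose mean was 26.2 ± 17.4 CPM. In Ccr7 dendritic cell-like cells Tnfsf9 was 0 to 104 CPM over 3 pools.

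Both coinhibitory ligands were highest in Ccr7 dendritic cell-like cells. Cd274 reached 630 ± 280 CPM there (SD, n = 3), against 183 ± 49.0 CPM (n = 6) in neutrophil-like, 139 ± 34.4 CPM in B cell-like and 133 ± 40.6 CPM in nonclassical monocyte-like cells, and 25.96 ± 7.71 CPM in macrophage-like cells (each n = 7). Pdcd1lg2 was 148 ± 94.1 CPM (SD, n = 3) in Ccr7 dendritic cell-like cells and at most 17.7 ± 5.24 CPM in any other class, that of B cell-like cells. The Ccr7 dendritic cell-like class, with 19 to 158 cells per pool, thus had the highest mean for 5 members, both PD-1 ligands among them. For Cd83 that lead lay within the spread, since it was above cDC2-like cells in 2 of 3 shared pools (mean difference 0.08 on the log2 scale, exact p = 0.75, adjusted p = 0.875).

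Neighbours in these orders were compared within pools by two-sided exact sign-flip permutation tests, 112 in all. None passed Benjamini-Hochberg adjustment, where the smallest adjusted p was 0.219, and 7 pools cannot give an unadjusted p below 0.0156. Differences with the same sign in 7 of 7 pools, each at that smallest exact p of 0.0156, included Cd80 in monocyte-like over nonclassical monocyte-like cells (mean difference 1.58 on the log2 scale), Cd83 in the reverse order of the same classes (0.74), Cd40 in cDC2-like over macrophage-like cells (0.54) and Cd274 in nonclassical monocyte-like over T cell-like cells (1.19). Cd86 was higher in cDC2-like than in macrophage-like cells in 4 of 7 pools (exact p = 0.578, adjusted p = 0.842), a difference within their spread.

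**Figure D1:**
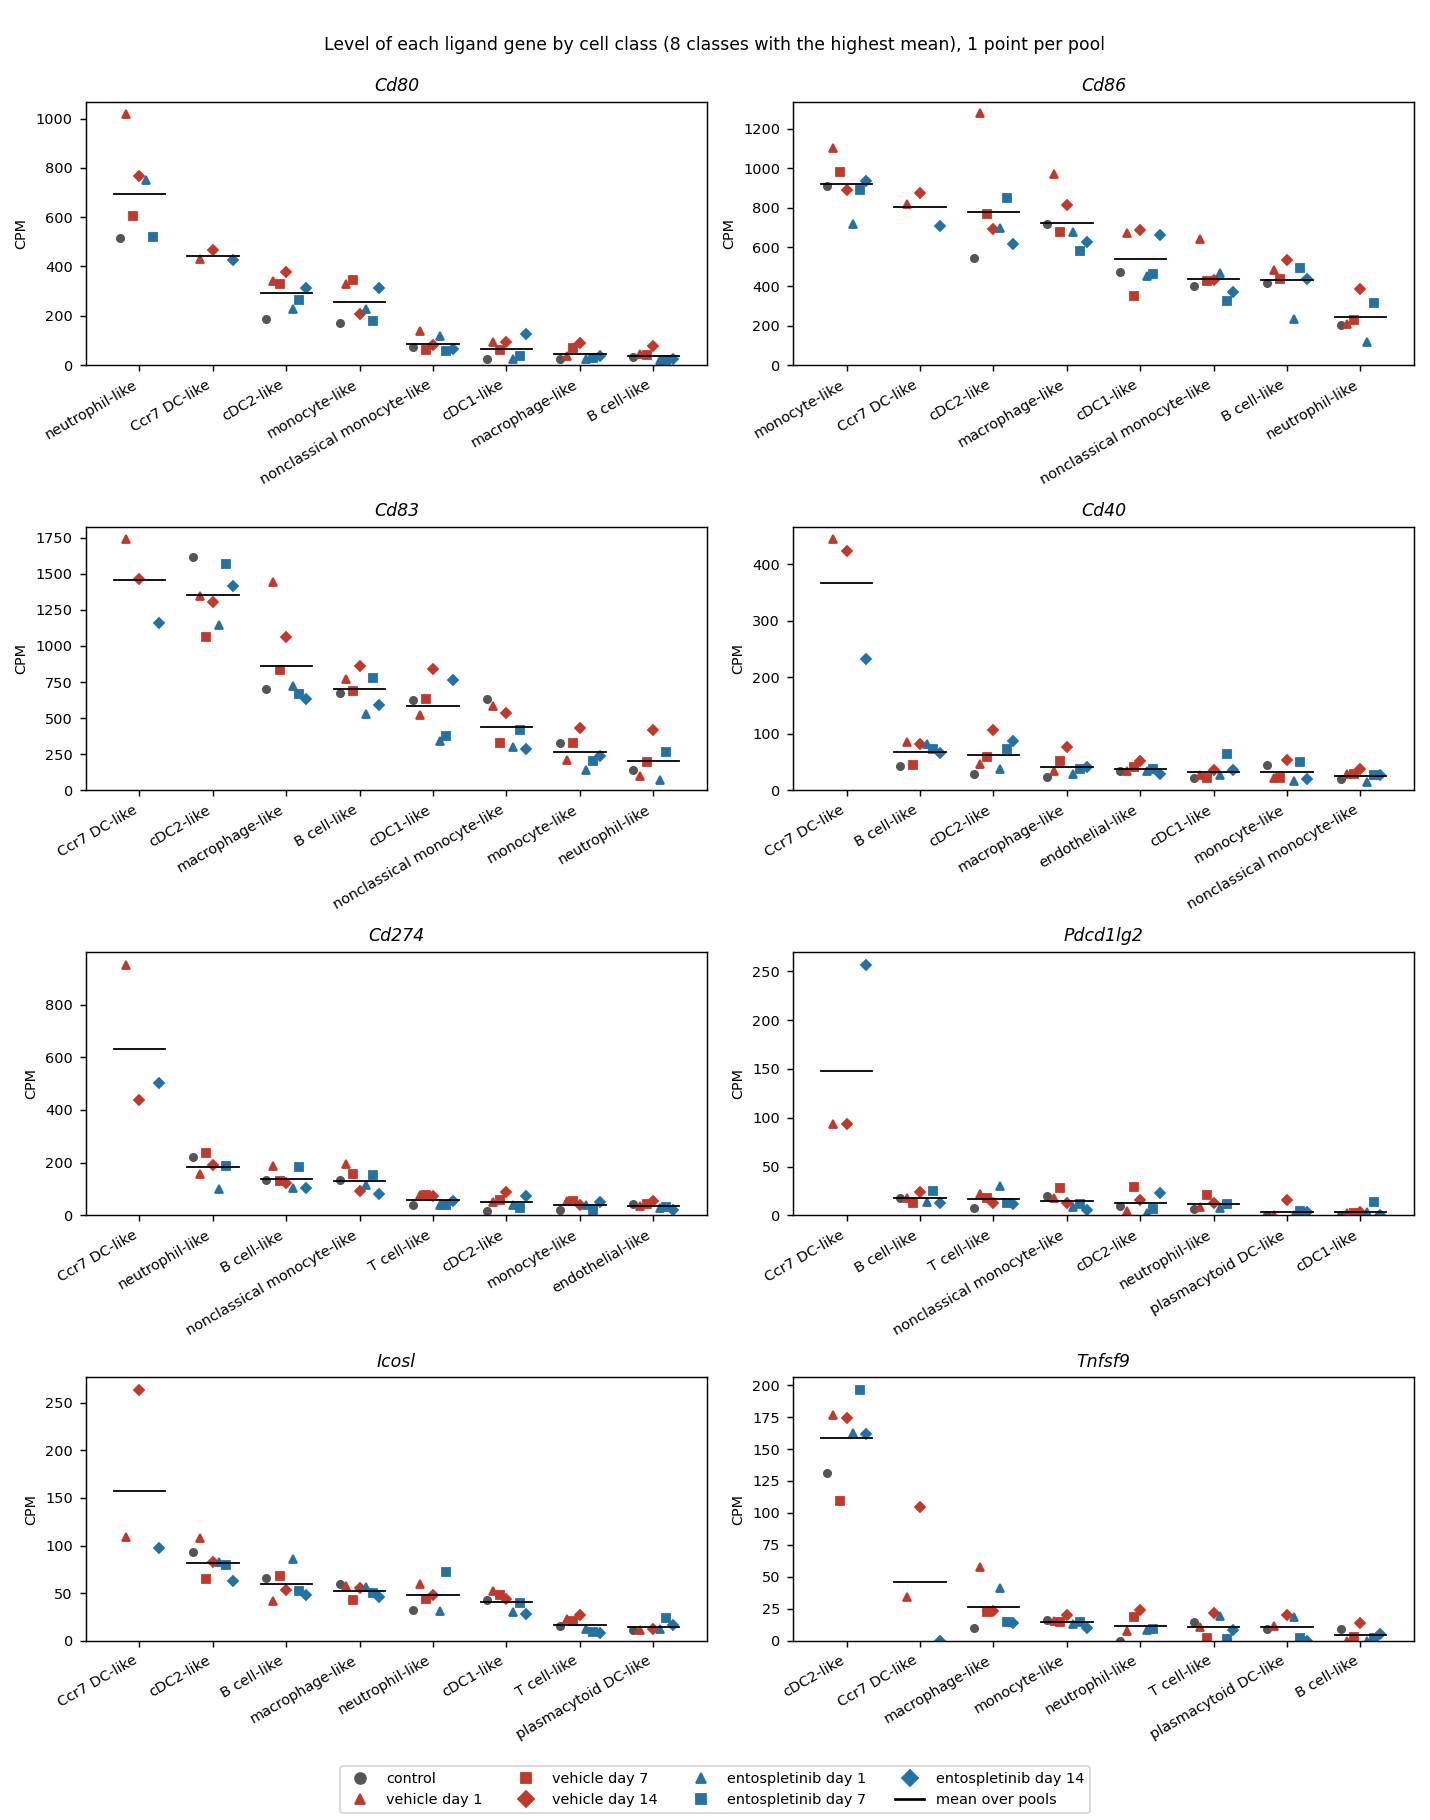
Levels of the 8 ligands by cell class, in CPM from 0, for the 8 classes with the highest mean of each, with 1 point per pool of at least 50 cells and a line at the mean. Neutrophil-like cells lead Cd80 at 696 CPM, while Ccr7 dendritic cell-like cells have the highest mean of Cd40, Cd274, Pdcd1lg2 and Icosl and, within the spread of cDC2-like cells, of Cd83.

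Free RNA can give a transcript to a cell that does not make it, so shares of cells with a transcript were taken after thinning each cell to 500 counts and set beside proximal tubule-like cells. For Cd80 the share was 34.4% in neutrophil-like, 13.2% in cDC2-like and 2.06% in macrophage-like cells, against 0.467% (95% exact Clopper-Pearson interval 0.234 to 0.835%) in proximal tubule-like cells. Without thinning the shares were 60.9%, 41.7%, 9.23% and 3.81%. Cd86 was found in 25.1% and Cd83 in 24.8% of thinned macrophage-like cells, against 2.89% and 2.59% of proximal tubule-like cells. Pdcd1lg2 was found in 0.0760% of macrophage-like cells (interval 0.0451 to 0.120%) and 0.0850% of proximal tubule-like cells (0.0103 to 0.307%), so the share of macrophage-like cells was not above this background. Its level over all pools was 1.68 CPM from 114 counts in macrophage-like cells and 0.676 CPM from 6 counts in proximal tubule-like cells. Intervals here and below cover counting error only.

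Over a whole pool the classes that supplied a ligand differed between conditions. Cd80 in all kept cells was 32.6 CPM in the control pool, 400, 220 and 182 CPM in the vehicle pools of days 1, 7 and 14, and 174, 55.2 and 56.9 CPM in the entospletinib pools. In the control pool 30.8% of these counts lay in cDC2-like and 25.0% in macrophage-like cells, whereas neutrophil-like cells held 59.7%, 44.2% and 31.7% in the vehicle pools of days 1, 7 and 14 and 53.4%, 14.4% and 3.86% in the entospletinib pools. For Cd86 the macrophage-like share was 66.7% in the control pool and 15.8% at vehicle day 1, where monocyte-like cells held 60.8%. Macrophage-like cells held 43.0% to 56.4% of the Cd83 counts in every pool. In sums over a pool, more cells of a class and more RNA per cell cannot be told apart, so the conditions are compared within classes below.

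Macrophage-like cells, 1795 to 7484 per pool, were the largest class of 5 pools. Before any ratio, Cd80 was 23.9 CPM in the control pool, 37.3, 70.9 and 87.8 CPM in the vehicle pools of days 1, 7 and 14, and 25.7, 30.6 and 36.4 CPM in the entospletinib pools. Each entospletinib pool was below the vehicle pool of its day, and all 6 injured pools were above the control pool. Cd40 was 23.0 CPM in the control pool, 34.3, 52.1 and 77.4 CPM in the vehicle pools and 28.6, 38.3 and 40.5 CPM in the entospletinib pools. Here too each entospletinib pool was below the vehicle pool of its day and all 6 injured pools were above the control pool. Tnfsf9, the 4-1BB ligand, was 9.83 CPM in the control pool, 58.0, 22.8 and 22.8 CPM in the vehicle pools and 41.2, 14.8 and 13.7 CPM in the entospletinib pools, highest at day 1 under both treatments.

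Cd83 was 701 CPM in the control pool, 1443, 831 and 1060 CPM in the vehicle pools and 720, 665 and 634 CPM in the entospletinib pools, so that the entospletinib pools lay close to the control pool. Cd86 was 715 CPM in the control pool, 969, 677 and 813 CPM in the vehicle pools and 674, 582 and 627 CPM in the entospletinib pools, all 3 of the latter below the control pool. For the PD-1 ligand Cd274 the values were 21.0 CPM, then 25.6, 31 and 39.9 CPM in the vehicle pools and 15.9, 25.6 and 22.9 CPM in the entospletinib pools. Icosl, which binds ICOS, varied least, with 59.9 CPM in the control pool, 57.3, 42.6 and 55.1 CPM in the vehicle pools and 56.5, 50.4 and 46.0 CPM in the entospletinib pools, and Pdcd1lg2 was between 0.729 and 2.49 CPM in all pools.

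**Figure D2:**
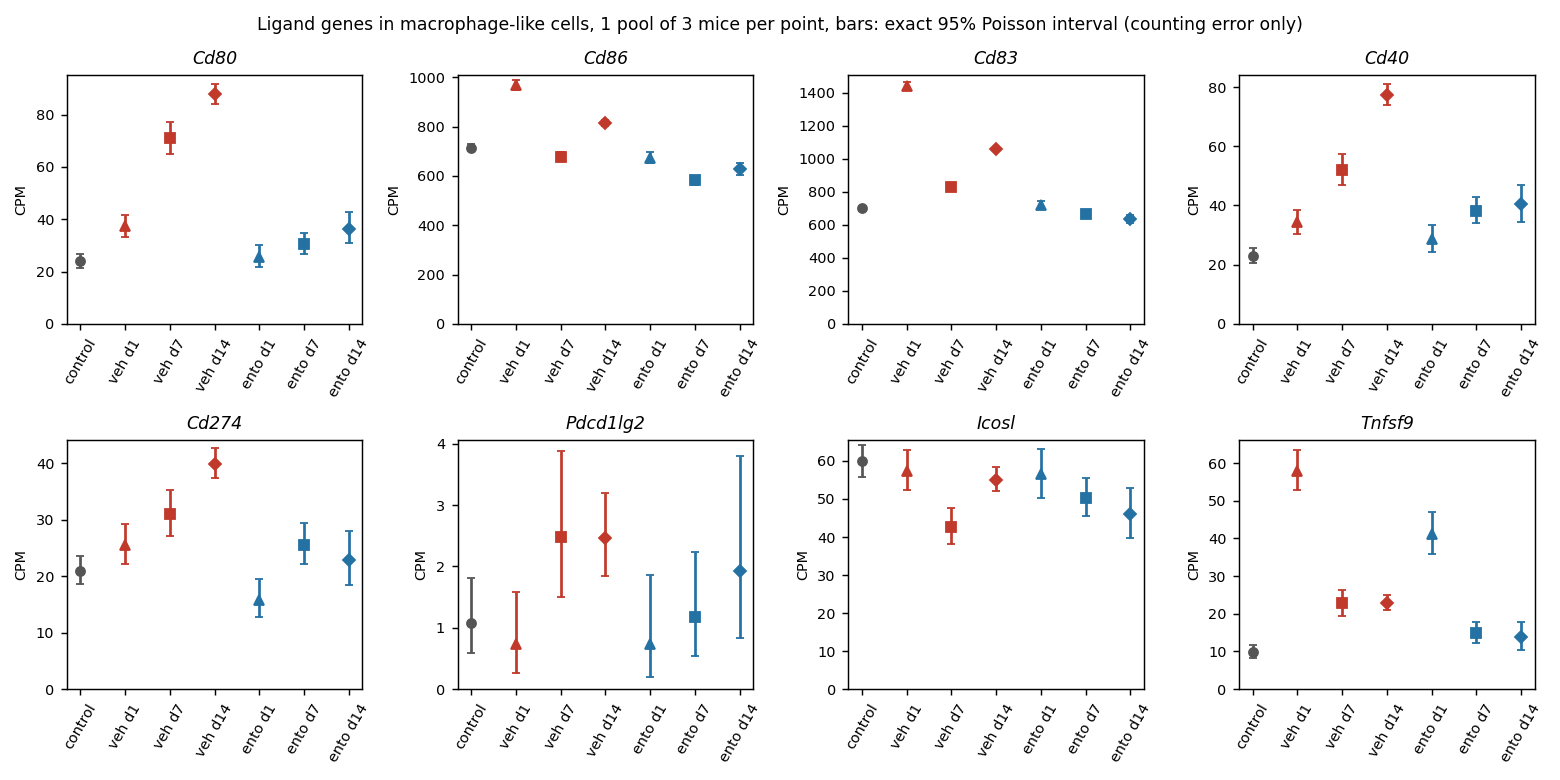
Level of each ligand in macrophage-like cells of each pool, in CPM from 0, with exact Poisson 95% intervals for counting error. Cd80 is 23.9 CPM in the control pool, 87.8 CPM at vehicle day 14 and 36.4 CPM at entospletinib day 14.

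To set the ligands after injury beside those of uninjured kidneys, each vehicle pool was compared with the control pool. Injury, surgery and vehicle cannot be told apart in this comparison. With 1 pool per condition there is no test. A gene with at least 20 counts over both pools was called past the fold when its log2 ratio, taken relative to the median gene, was at least 1 or at most -1 with the same direction in all 8 sublibraries, which are technical portions of the same cells. At day 1, 1 of 8 members was called higher in macrophage-like cells, Tnfsf9 at 2.44 (95% interval 2.15 to 2.73), beside 6.5% of all genes called higher. At day 7, 3 of 8 members were called higher, beside 3.12% of all genes: Cd80 at 1.86 (1.66 to 2.07), Tnfsf9 at 1.505 (1.17 to 1.85) and Cd40 at 1.47 (1.25 to 1.69). The same 3 were called at day 14, beside 3.65% of all genes: Cd80 at 1.94 (1.77 to 2.12), Cd40 at 1.82 (1.64 to 2.00) and Tnfsf9 at 1.28 (1.00 to 1.57). Cd274 stood just below the limit at day 14, at 0.99 (0.79 to 1.19), and Cd83 was nearest to it at day 1, at 0.92 (0.88 to 0.96), although within each of the 4 clusters of the class taken alone it was below 0. Icosl was -0.19, -0.20 and -0.06 at the 3 days, and no member was called lower, beside 5.85%, 1.41% and 2.04% of genes. The median of the 8 members was 0.39, 1.17 and 1.12, where the median of all genes is 0 by construction and the unadjusted median log2 ratio of all genes was 0.12, -0.29 and -0.06.

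Treated pools were then set against the vehicle pool of their day, the same vehicle pools as above. At day 1 no member was called lower in macrophage-like cells, beside 0.281% of all genes, and the lowest ratio was that of Cd83, -0.94 (95% interval -0.99 to -0.89). At day 7, Cd80 was called lower at -1.56 (-1.79 to -1.34), beside 1.61% of all genes. At day 14, Cd80 at -1.42 (-1.67 to -1.18) and Cd40 at -1.08 (-1.32 to -0.85) were called lower, beside 1.4% of all genes. Of the members tested, 6 of 7, 8 of 8 and 8 of 8 lay below the median gene at days 1, 7 and 14, where 50.0% of genes do, and their medians were -0.46, -0.73 and -0.89. These values are relative to the median gene. Icosl, below it at day 7, had a higher CPM in the entospletinib pool than in the vehicle pool of that day.

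The 3 same-day pairs are the only replication of treatment, and they were tested together with edgeR's quasi-likelihood F test with day as a block (2 residual degrees of freedom, Benjamini-Hochberg adjustment over 13523 genes). The test borrows information on variance from other genes, which brought the total in macrophage-like cells to 15.32 degrees of freedom. Among macrophage-like cells 126 genes (0.932%) rose and 323 (2.39%) fell with entospletinib. All 8 members were fitted and 6 of them fell. Cd80 fell by 1.17 ± 0.17 on the log2 scale (SE, edgeR adjusted p = 0.0018) and Cd83 by 0.83 ± 0.13 (adjusted p = 0.00271). Cd274, a coinhibitory ligand, fell by 0.73 ± 0.14 (edgeR adjusted p = 0.00899). Tnfsf9 fell by 0.73 ± 0.15 (edgeR adjusted p = 0.014), Cd40 by 0.70 ± 0.15 (adjusted p = 0.018) and Cd86 by 0.51 ± 0.12 (adjusted p = 0.0344). Icosl, at -0.15 ± 0.13 (edgeR adjusted p = 0.613), and the sparse Pdcd1lg2, at -0.76 ± 0.42 (adjusted p = 0.41), did not pass. The 6 that fell bind CD28 and CTLA-4, 4-1BB, PD-1 or CD40 ligand, or in the case of CD83 steady other surface molecules, and each was lower in 3 of 3 pairs. Without the day 7 pools 3 members passed, Cd80, Cd83 and Cd274, beside 1.33% of all genes called lower. Without the day as a block edgeR called no gene at all, with 607 of 12979 genes at an unadjusted p under 0.05.

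**Figure D3:**
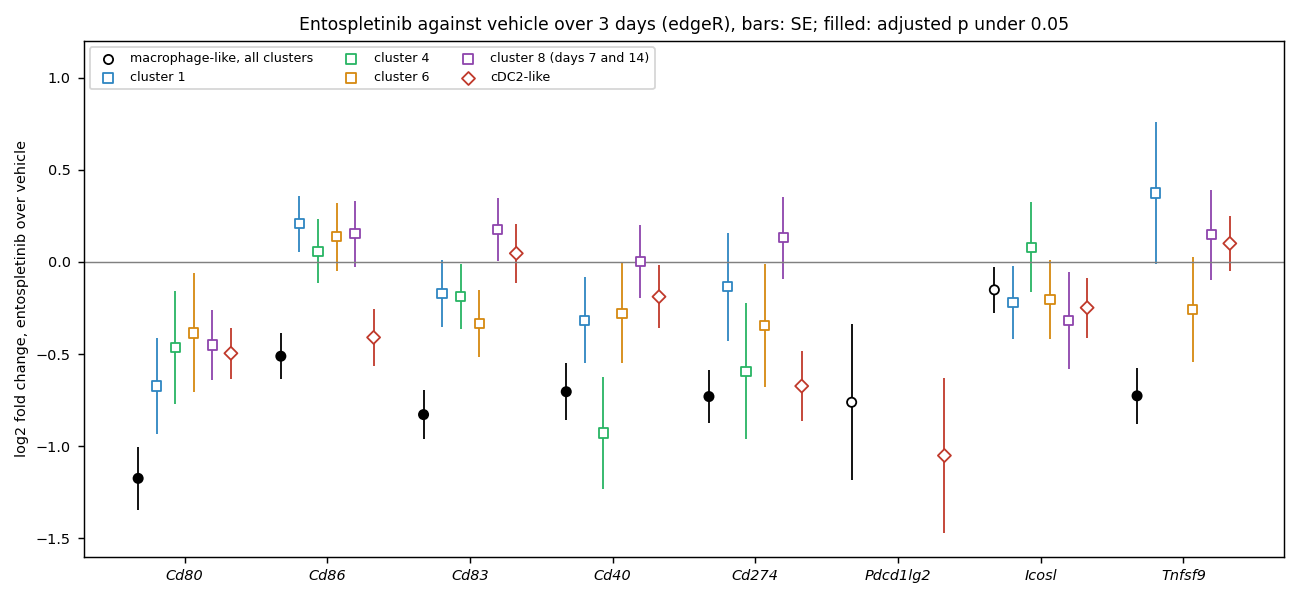
Log2 fold change of each ligand with entospletinib against vehicle over 3 days, in macrophage-like cells, in cDC2-like cells and in each macrophage-like cluster fitted alone. Bars are standard errors derived from the edgeR F statistic, and filled points have an adjusted p under 0.05. Cd80 is at -1.17 in the class as a whole and between -0.67 and -0.39 in its clusters.

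The class was made of 4 clusters whose shares differed between pools. Clusters 1 and 4, led by Agmo, Slco2b1 and Negr1, held 68.0% and 20.1% of macrophage-like cells in the control pool. Cluster 6, led by Nes, Ch25h, Cd36, Plau and Mmp12, held 87.8% at vehicle day 1 and 79.9% at entospletinib day 1, and 2.13% to 9.54% elsewhere. Cluster 8 was 4.10% of macrophage-like cells in the control pool, 3.57%, 26.1% and 28.7% in the vehicle pools of days 1, 7 and 14, and 2.02%, 8.80% and 7.46% in the entospletinib pools. At entospletinib day 14 cluster 4 held 78.0%, against 19.3% at vehicle day 14. Cluster 4 is also the shallowest, with a median count 0.68 times that of its pools, and the entospletinib day 14 pool had the lowest depth. The part of depth in that share was not tested.

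Cluster 8 had the highest levels of Cd80, Cd86, Cd83 and Cd40 of the 4 clusters in every pool where it could be measured. Its leading genes include Cd83, Cd40, Fosb and Apoe, although no member was used for clustering, so the following levels describe it with no test. All 12 macrophage markers had counts in it, but of the 4 clusters it was the highest in 1 of the 12, Apoe (2199 CPM). Adgre1 (705 CPM, against 775 to 980 CPM in the others), Csf1r (552 CPM, against 659 to 708 CPM), C1qa (542 CPM, against 606 to 1044 CPM) and Slco2b1 (118 CPM, against 353 to 379 CPM) were lowest there. It was the highest in 7 of 9 cDC2 markers (Zbtb46 at 24.6 CPM, Cd209a at 19.98 CPM, Flt3 at 13.6 CPM and Ccl17 at 11.3 CPM among them), in 5 of 9 markers of Ccr7 dendritic cells (Ccl22 at 20.3 CPM and Ccr7 at 6.98 CPM among them) and in 6 of 8 monocyte markers. The cDC2 marker Mgl2 was 206 CPM in cluster 8 and 206 to 275 CPM in the others, and the monocyte marker Fn1 was 599 CPM in cluster 8 and 31.2 to 55.3 CPM in the others. Their part in the levels of the ligands was not tested. The doublet caller marked 10.2% of the cells of cluster 8 and 5.39% of all cells. Cd80 in cluster 8 was 109 CPM in the control pool, 193, 163 and 176 CPM in the vehicle pools and 136 and 138 CPM in the entospletinib pools of days 7 and 14, while in clusters 1, 4 and 6 it was between 9.51 and 40.4 CPM in every pool. The entospletinib day 1 pool had fewer than 50 cells of cluster 8 and gives no value. Cd86 was 1367 to 2512 CPM and Cd83 1646 to 3210 CPM in cluster 8, each highest in the control pool. Cd40 in cluster 8 was 72.0 CPM in the control pool, 64.5, 89.3 and 143 CPM in the vehicle pools and 99.6 and 157 CPM in the entospletinib pools. Cluster 8 held 19.1% of the Cd80 counts of macrophage-like cells in the control pool, 76.9% and 71.6% at vehicle days 7 and 14, and 47.6% and 39.1% at entospletinib days 7 and 14. Its shares of all macrophage-like counts in the same pools were 4.19%, 33.5%, 35.8%, 10.7% and 10.3%.

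The comparisons were also made within single clusters. No member was called higher over control in any cluster with at least 50 cells in both pools, beside 0.857% to 9.58% of genes, or lower with entospletinib, beside 0.187% to 1.17%. Cd86 in cluster 6 was called lower over control with vehicle at day 7 (-1.21, beside 0.278% of genes) and day 14 (-1.42, beside 0.552%), where the control pool had 1174 CPM and the vehicle pools 442 and 449 CPM. Of 84 single-cluster ratios of members over control, 36 had the opposite sign to the class, among them most of those of Cd83 and Cd86. Cd83 over control at day 1 was 0.92 in the class and -0.59, -0.44, -0.02 and -0.59 in clusters 1, 4, 6 and 8, where cluster 6 went from 7.83% of cells in the control pool to 87.8%. At day 14 Cd83 was 0.66 in the class and -0.10, 0.62, -0.63 and -0.72 in the same clusters. Cd86 at day 14 was 0.25 in the class and -0.60, -0.31, -1.42 and -0.74 in them. In the fit over 3 days, run on each cluster alone (on days 7 and 14 for cluster 8) after the data had been seen, edgeR called no member lower with adjusted p under 0.05 in any of the 4 clusters, and the genes called lower in all numbered 11, 4, 4 and 3 in clusters 1, 4, 6 and 8 (0.0984%, 0.0483%, 0.0553% and 0.033%). DESeq2 was not run on single clusters. At an unadjusted p under 0.05 Cd80 was lower in clusters 1 (-0.67 ± 0.26, edgeR adjusted p = 0.471) and 8 (-0.45 ± 0.19, adjusted p = 0.719) and Cd40 in cluster 4 (-0.93 ± 0.30, adjusted p = 0.513). The estimates for Cd80 were -0.67, -0.47, -0.39 and -0.45 in clusters 1, 4, 6 and 8, below 0 in each, and those for Cd86 were 0.21, 0.06, 0.14 and 0.15, above 0 in each. The part of cluster shares in the fall of the members over the whole class was not tested. At day 1 cluster 6 held 90.1% and 86.7% of all macrophage-like counts in the vehicle and entospletinib pools, and its shares of the Cd83 counts (91.9% and 89.2%) and Tnfsf9 counts (87.4% and 83.6%) were close to these. In cluster 6 at day 1 Cd83 was 1473 CPM in the vehicle pool and 740 CPM in the entospletinib pool, a ratio of -0.92 relative to the median gene, and Tnfsf9 was 56.2 and 39.7 CPM, a ratio of -0.43.

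**Figure D4:**
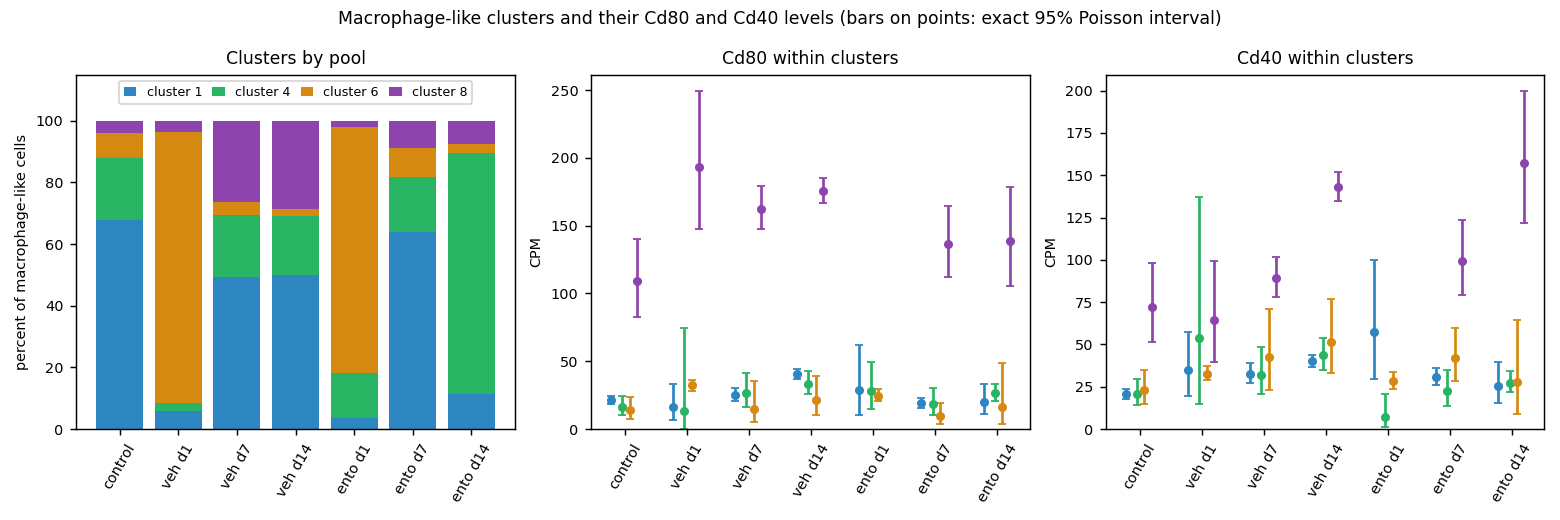
Share of macrophage-like cells in clusters 1, 4, 6 and 8 by pool, in percent, beside the Cd80 and Cd40 levels of each cluster in CPM with exact Poisson intervals. Cluster 8 holds 28.7% of macrophage-like cells at vehicle day 14 and 7.46% at entospletinib day 14, and its Cd80 lies between 109 and 193 CPM, above the other clusters.

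In cDC2-like cells, which prime T helper cells, the coinhibitory ligand Cd274 moved furthest from control. It was 15.3 CPM in the control pool, 52.2, 59.2 and 89.3 CPM in the vehicle pools of days 1, 7 and 14, and 38.3, 29.1 and 73.9 CPM in the entospletinib pools. With vehicle it was called higher at all 3 days, at 1.64, 2.19 and 2.61 relative to the median gene, together with Cd86 at day 1 (1.098) and with Cd80 (1.07) and Cd40 (1.97) at day 14. These were 2, 1 and 3 of 8 members, beside 2.82%, 2.17% and 2.17% of all genes. Cd80 was 188 CPM in the control pool, 342, 329 and 376 CPM in the vehicle pools and 228, 265 and 311 CPM in the entospletinib pools, lower in each treated pool than in its vehicle pair. Cd83 did not follow it, with 1614 CPM in the control pool, 1343, 1061 and 1304 CPM in the vehicle pools and 1145, 1570 and 1419 CPM in the entospletinib pools.

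Entospletinib over vehicle in cDC2-like cells gave 0, 2 and 0 members called lower at days 1, 7 and 14, beside 0.287%, 0.893% and 0.282% of genes. The 2 at day 7 were the PD-1 ligands Cd274 at -1.31 and Pdcd1lg2 at -2.499, the latter on 11 and 53 counts. In the edgeR fit over 3 days 40 of 9652 genes rose (0.414%) and 60 fell (0.622%), with 1105 at an unadjusted p under 0.05. No member passed in edgeR or in DESeq2. Cd80 was at -0.50 ± 0.14 (edgeR adjusted p = 0.0729) and Cd274 at -0.67 ± 0.19 (adjusted p = 0.0829), both with an unadjusted p under 0.05, as were Cd86 at -0.41 ± 0.16 (adjusted p = 0.265) and Pdcd1lg2 at -1.05 ± 0.42 (adjusted p = 0.293). Cd274 passed without the day 1 pools (-0.84, edgeR adjusted p = 0.012, range over all alternatives 0.012 to 0.946) and Pdcd1lg2 without the day 14 pools (-2.14, adjusted p = 0.0186, range 0.0186 to 0.9999). Whether the response of macrophage-like and cDC2-like cells differs was not tested. Summed macrophage markers, with counts of all 12, were 806 to 1473 CPM in cDC2-like cells, 807 CPM in the control pool and highest at entospletinib day 7, and their part in these values was not tested.

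Neutrophil-like cells, with the highest Cd80, had 516 CPM in the control pool, 1018, 604 and 767 CPM in the vehicle pools and 749 and 522 CPM in the entospletinib pools of days 1 and 7, and too few cells at day 14 with entospletinib. The smallest of the 3 clusters of this class, with 1092 cells, had 96.3% called doublets and a median count 2.12 times that of its pools. Without called doublets Cd80 was 779 CPM in the control pool, 1160, 752 and 1141 CPM in the vehicle pools and 879 and 759 CPM in the entospletinib pools, higher in each than with them. Cd80 over all cells of the class was called higher at vehicle day 1 (1.21), beside 1.98% of genes, while Cd40 was called lower at day 1 (-2.11, on 87 and 4 counts) and at day 7 (-1.59, on 32 and 4 counts), beside 17.5% and 11.5% of genes. Without called doublets the Cd40 ratios were -2.28, called, and -1.93, not called. The control pool held 75 of these cells, and without called doublets, which left 65, the Cd80 ratio was 0.86 and not called. Monocyte-like cells had 172 CPM of Cd80 in the control pool, 328, 346 and 208 CPM in the vehicle pools and 228, 180 and 314 CPM in the entospletinib pools. Cd80 there was called higher over control at vehicle day 7 (1.19, beside 3.47% of genes) and lower with entospletinib at day 7 (-1.26, beside 3.21%), and without called doublets the ratios were 1.19 and -1.26. Its order reversed at day 14, where the entospletinib pool was the higher one. Cd40 in monocyte-like cells was called lower at vehicle day 1 (-1.27), beside 10.1% of genes. Over 3 days edgeR called no gene in monocyte-like cells (0% higher and 0% lower), with 564 at an unadjusted p under 0.05 and 4 called lower by DESeq2, and Cd83 was the member with the lowest unadjusted p (-0.80 ± 0.21, edgeR adjusted p = 0.739).

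In cDC1-like cells, which cross-present antigen, Cd80 was 23.7 CPM in the control pool, 94.2, 62.6 and 91.7 CPM in the vehicle pools and 23.2, 35.04 and 126 CPM in the entospletinib pools. It was called higher at vehicle days 7 (1.60) and 14 (1.99), beside 0.702% and 1.46% of genes, and without called doublets the ratios were 0.82, not called, and 1.70. The 12 macrophage markers summed to 484 CPM in the control pool and 525.99 and 839 CPM at vehicle days 7 and 14, and without called doublets to 189 CPM and to 198 and 305 CPM. Their part in these ratios was not tested. In the edgeR fit no member passed in this class, where 10 genes rose and 48 fell of 7246 (0.138% and 0.662%) and 665 had an unadjusted p under 0.05. DESeq2 was not run on it.

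T cell-like and endothelial-like cells held macrophage transcripts in amounts that differed between pools, and their part in the calls was not tested. Neutrophil-like cells, the class with the highest Cd80, numbered 8241, 1827 and 2253 in the vehicle pools of days 1, 7 and 14. In the entospletinib pools they numbered 2243, 141 and 45. Neutrophil markers were not summed in these classes or in cDC1-like cells, and the part of neutrophil transcripts was not tested. T cell-like cells at vehicle day 14 had Cd80 at 77.0 CPM against 15.8 CPM in the control pool, and Cd80, Cd86, Cd83 and Cd40 were called higher (4 of 8 members, beside 1.89% of genes), while Cd80, Cd83 and Cd40 were called lower with entospletinib (3 of 8, beside 1.85%). All 12 macrophage markers had counts in this class in every pool, and their sum was 624.8 CPM in the control pool, 635, 773 and 1480 CPM in the vehicle pools and 505, 537 and 461 CPM in the entospletinib pools. Of its 2 clusters, the smaller, of 611 cells, had 79.7% called doublets. Without called doublets the sum was 236 CPM at vehicle day 14 against 148 CPM in control, Cd80 was 29.6 CPM against 7.78 CPM in control and still called (1.97), while Cd83 (1.29), Cd40 (2.01) and Cd86 (0.95) were not called. With entospletinib Cd80 (-1.496), Cd40 (-1.18) and Cd83 (-0.30) were not called either, at marker sums of 259 and 236 CPM in the entospletinib and vehicle pools. Pdcd1lg2, called higher at vehicle day 1 (1.37, beside 1.55% of genes), was called without them too (1.501).

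Endothelial-like cells had 8.39 CPM of Cd80 in the control pool, 39.6, 36.9 and 43.5 CPM in the vehicle pools and 21.5, 11.2 and 19.3 CPM in the entospletinib pools. It was called higher at vehicle days 7 (2.25, beside 2.71% of genes) and 14 (2.38, beside 2.11%) and lower with entospletinib at day 7 (-1.90, beside 1.25%). The last ratio was -1.225 without called doublets, still called. Their summed macrophage markers were 458 CPM in the control pool, 416, 675 and 1152 CPM in the vehicle pools and 502, 465 and 485 CPM in the entospletinib pools, with counts of all 12. Without called doublets Cd80 was 11.3 CPM against 5.28 CPM at day 7 (1.19, called) and 14.9 CPM at day 14 (1.49, not called), with marker sums of 212 and 323 CPM against 211 CPM in control. At vehicle day 1 Cd80 was 9.35 CPM without them, at a marker sum of 243 CPM. The 5 remaining calls of members were Cd274 higher in loop of Henle-like cells at vehicle day 1 (32 and 1 counts, beside 3.38% of genes), Cd83 lower in plasmacytoid dendritic cell-like cells at vehicle day 1 (4 and 94 counts, 0.536%), Cd86 lower in proximal tubule-like cells at vehicle day 1 (39 and 459 counts, 2.36%), Cd86 higher in stroma-like cells at vehicle day 14 (79 and 3 counts, 1.96%) and Icosl higher in B cell-like cells with entospletinib at day 1 (30 and 31 counts, 0.819%).

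The receptors were read in T cell-like cells, whose larger cluster also held 5 natural killer cell markers among its 100 leading genes. Called doublets are included in the receptor values and calls. Tnfrsf9, encoding 4-1BB, was 10.7 CPM in the control pool, 59.3, 45.7 and 59.1 CPM in the vehicle pools and 33.3, 34.9 and 42.2 CPM in the entospletinib pools. It was called higher at all 3 days with vehicle, at 2.27, 2.33 and 2.505, beside 1.55%, 1.15% and 1.89% of genes, and it was below the vehicle pool in each treated pool. Over all pools Tnfrsf9 was 54.8 CPM in Ccr7 dendritic cell-like cells and 44.75 CPM in T cell-like cells. Ctla4, the inhibitory receptor for CD80 and CD86, was 75.9 CPM in the control pool, 103, 154 and 127 CPM in the vehicle pools and 80.6, 72.3 and 233 CPM in the entospletinib pools, called higher at vehicle day 7 (1.26). Pdcd1, encoding PD-1, was 19.8 CPM in the control pool, 47.0, 17.8 and 49.3 CPM in the vehicle pools and 28.03, 17.5 and 30.1 CPM in the entospletinib pools, called higher at vehicle day 14 (1.35). Cd28 (50.8 to 161 CPM), Icos (161 to 255 CPM) and Cd40lg (17.5 to 65.6 CPM) were not called higher at any day, and Cd28 and Icos were highest in the control pool. The edgeR fit called none of 8796 genes in this class (0% higher and 0% lower), with 885 at an unadjusted p under 0.05 and DESeq2 not run, among them Tnfrsf9 (-0.61 ± 0.19, edgeR adjusted p = 0.35) and Pdcd1 (-0.59 ± 0.24, adjusted p = 0.459).

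Of 16 other ligands that T cells read, 12 could be fitted in macrophage-like cells. Pvr, the ligand of DNAM-1 and TIGIT, fell by 0.98 ± 0.15 on the log2 scale with entospletinib (edgeR adjusted p = 0.00234), and Tnfrsf14, the partner of BTLA and LIGHT, by 0.84 ± 0.21 (adjusted p = 0.0424), so 2 of 12 fell and none rose, beside 2.39% and 0.932% of all genes. In the fits of single clusters Pvr was at -0.20, -0.49, -0.47 and -0.25 in clusters 1, 4, 6 and 8 and Tnfrsf14 at -1.07 ± 0.31, -0.65 and -0.56 in clusters 1, 4 and 8, and neither gene passed in any cluster where it was fitted (edgeR adjusted p 0.23 to 0.999). Pvr was 14.5 CPM in the control pool, 34.5, 33.5 and 53.7 CPM in the vehicle pools and 21.7, 17.7 and 28.4 CPM in the entospletinib pools, each treated pool below its vehicle pair. With vehicle Pvr was called higher over control at days 1, 7 and 14 (1.12, 1.496 and 1.95), Tnfsf14 at days 7 and 14 (3.12 and 3.21, the control pool holding 5 counts) and the adhesion ligand Icam1 at day 14 (1.18), while Cd276 was called lower at day 14 (-1.13, beside 2.04% of genes). These were 1 of 12, 2 of 12 and 3 of 14 tested called higher, beside 6.5%, 3.12% and 3.65% of all genes. Icam1 did not pass over 3 days (-0.44 ± 0.15, edgeR adjusted p = 0.14), nor did Tnfsf14 (-0.81 ± 0.35, adjusted p = 0.251). In cDC2-like cells 9 of the 16 could be fitted and Icam1 alone fell, beside 0.622% of all genes (-0.67 ± 0.17, edgeR adjusted p = 0.0493, range over all alternatives 0.00301 to 0.909).

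The genes whose levels over the 15 classes were most like each member's were found by Pearson's r of log2(CPM + 10), among genes of at least 100 CPM in a class. The points share libraries and depth, and r is given as a description. Cd80 was followed most closely by Nfkbia (r = 0.94), Pim1 (0.94) and Mcemp1 (0.94), all highest in neutrophil-like cells. For Cd86 the nearest were Irf5 (0.94), Fcgr2b (0.93) and Ctss (0.92), and for Cd83 the MHC class II pathway genes Cd74 (0.93), H2-Eb1 (0.92) and H2-Ab1 (0.92). Cd40 was nearest to Swap70 (0.96), Etv3 (0.93) and Stxbp3 (0.92). The PD-1 ligands shared Relb, the NF-kappaB subunit, at 0.92 for Cd274 and 0.91 for Pdcd1lg2, beside Nfkb2 (0.94) and Rassf3 (0.90) for the former and Il4i1 (0.91) and Gypc (0.91) for the latter. Icosl was nearest to Plxnc1, Cd83 and Rassf2 (0.89 each), and Tnfsf9 to Tnip3 (0.94), Dcstamp (0.92) and Stk38l (0.90), which like Tnfsf9 were highest in cDC2-like cells.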

How the data were processed

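Kidney cells of 7 pools were barcoded together (Parse Evercode WT) by the authors and deposited as counts, whole numbers of transcripts per gene and cell with no normalization, aligned to mm10 per the submitters' processing notes. The annotation release is not given in the sources used here. Groups came from the deposited cell table, and each of the 8 deposited samples holds cells of all conditions. Cells with more than 300 genes, fewer than 20000 counts, under 25% mitochondrial and under 1.5% ribosomal protein gene counts were kept, after the study's methods. They were clustered (4000 variable genes, 40 components, 15 neighbours, Leiden resolution 1, 22 clusters) and named from fixed marker lists with at least 3 detected markers. Clusters 2, 12 and 13, which joined classes, were split by their resolution 2 names. Doublets, called by the share of simulated pairs among 30 neighbours (over 0.5), were kept. Counts were summed per pool and class. Python 3.11.15, leidenalg 0.10.2, R 4.3.3, edgeR 4.0.16 (TMM, filterByExpr, quasi-likelihood) and DESeq2 1.42.0 were used. The named genes were the 8 members, their 6 receptors, 16 other ligands and for each member its 3 most alike genes. Members and lists were chosen with earlier results of these data known. The study itself lists Cd83 and Cd86 among genes high in macrophages of these libraries that it annotates as CKD-associated. It reports that fewer of these macrophages emerged with entospletinib. Whether cluster 8 is that population was not tested. The ratio intervals are exact conditional Poisson intervals at 95%. Each SE of an edgeR fold change was derived as the absolute log2 fold change over the square root of F. Tested on simulated macrophage-like counts of 13458 genes, the edgeR fit called 53 of 100 genes changed 2-fold and 100 of 100 changed 4-fold, with 9 false calls. The simulation gave all pools the same mean profile, with no effect of day, and all genes the same dispersion. Its figures need not hold for the real pools, which differ by day. The 3 pairs differ in day, so p-values describe a shift shared by days. Alternatives in cell filters, doublets, class naming, scaling, thinning to 500 counts, count minimum, sublibraries, pools, tool and filter were run.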

Additional observations from a re-analysis of the deposited data

How the results depend on the processing

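The conditions have 1 pool each, depth was lowest at entospletinib day 14, and 3 pairs from different days carry the only test, so its outcome rests on the day term and on single pairs. Of the ratios under alternatives, 930 moved by less than the SD between sublibraries, 130 by more and 5 of called ratios reversed. Of the mean levels, 113 moved by less than the SD between pools and 7 by more. The causes of the changes below were not tested.

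Members called higher over control in macrophage-like cells numbered 1, 3 and 3 at days 1, 7 and 14. At day 1 placing each cell by its own markers gave 3 (beside 8.81% of all genes, 6.5% in the class), at day 7 thinning gave 1 (2.05%, against 3.12%), and single clusters gave 0 at each day (0.857% to 9.58%). Members called lower with entospletinib numbered 0, 1 and 2. Placement by markers gave 1 at day 1 and 2 at day 7 (beside 1.57% and 2.81% of all genes, 0.281% and 1.61% in the class), leaving out sublibraries gave 1 to 2 at day 7 (1.71% to 2.03%) and 1 to 4 at day 14 (1.57% to 1.83%), more than 500 genes per cell gave 1 at day 14 (1.09%, against 1.4%), and single clusters gave 0 at days 7 and 14 (0.187% to 0.785%). In cDC2-like cells the higher counts of 2 and 1 at days 1 and 7 became 1 and 0 with thinning (2.39% and 2.29%), and at day 7 became 2 by markers (2.5%), at resolution 2 (2.56%) and, at most, without 1 sublibrary (2.43% to 2.75%). The 2 lower at day 7 became 1 without the ribosomal limit (0.804%), 1 at 100 counts (1.06%) and 0 with thinning (1.13%).

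For macrophage-like cells the 126 genes higher and 323 lower in edgeR became 48 higher in DESeq2, 202 and 552 without a filter, 0 and 0 without the day term, 78 and 212 without the ribosomal limit, 77 higher with more than 500 genes, 250 and 649 by markers, 70 to 351 and 171 to 760 without 1 day's pools, and 8, 5, 3 and 0 higher and 11, 4, 4 and 3 lower in clusters 1, 4, 6 and 8. The 6 members lower (beside 2.39% of genes) became 3 without the day 7 pools (1.33%; 3 to 6 over the days left out), 0 without the day term (0%) and 0 in each cluster (0.033% to 0.0984%). In cDC2-like cells 40 higher and 60 lower became 4 and 5 in DESeq2, 0 and 0 without the day term, 7 and 16 without doublets, 14 and 24 without the ribosomal limit, 0 and 0 by markers, 91 lower without a filter, and 23 to 84 and 46 to 114 without 1 day's pools. There 0 members lower became 1 without a filter (0.37% of genes) and 0 to 1 without 1 day's pools (0.5% to 1.23%).

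Of the ratios called in the whole class, those that reversed were Tnfsf9 over control in cluster 1 at day 1 (-0.85) and in clusters 1, 6 and 8 at day 14 (-0.021, -0.221 and -0.194), and Cd40 with entospletinib in cluster 8 at day 14 (0.18). With the uncalled ratios included, 36 of 84 single-cluster ratios over control and 22 of 65 with entospletinib had the opposite sign to the class. In the fits of single clusters, added after the data were seen, the sign turned for Cd86 in clusters 1, 4, 6 and 8 (0.206, 0.058, 0.137 and 0.152), for Cd83 (0.175), Cd40 (0.001), Cd274 (0.13) and Tnfsf9 (0.15) in cluster 8, for Icosl in cluster 4 (0.079) and for Tnfsf9 in cluster 1 (0.37), none past the threshold. In cDC2-like cells it turned for Cd83 without a filter (-0.011), without the day 7 pools (-0.052), without the ribosomal limit (-0.024) and by markers (-0.001), and without the day 7 pools for Pdcd1lg2 (0.107; -2.137 without day 14) and Tnfsf9 (-0.109; 0.269 without day 14).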
